A study of Mus musculus with 8 samples.

Results

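Cables1, Afm, Asb11 and Htra4 are 4 genes that stood far lower in mouse distal convoluted tubule fragments labelled as knockout for a calcineurin subunit than in controls. They were picked by their counts in this same contrast, for a large difference with separated groups and for having little known role in the segment. They are 4 of the 42416 gene identifiers in the count files, and all 4 were among the 14268 genes with enough counts to be tested. RNA was sequenced from 8 libraries of 1000 sorted tubule fragments each. The 4 Control libraries came from animals labelled wild type for the floxed Cnb1 allele, and the 4 KO libraries from animals labelled Cnb1fl Tg/Tg. Cnb1, gene symbol Ppp3r1, encodes the regulatory subunit of the calcium-dependent phosphatase calcineurin. Animals of both groups were labelled NCCcre Tg/+ and TOMATO Tg/+, that is, with a Cre transgene named for the NaCl cotransporter and with a Tomato reporter. Animals of both groups also were given tamoxifen by gavage on 5 days, 2 mg each day, and tissue was taken 3 weeks later. The labels give no age.

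The distal convoluted tubule is a short stretch of the nephron behind the macula densa, where thiazide diuretics block NaCl uptake and where the final excretion of magnesium and calcium is tuned. Calcineurin removes phosphate groups from its substrates when cellular calcium rises, and its best known targets are the NFAT transcription factors. The 4 genes belong to different families. Cables1 is an intracellular adaptor that links cyclin-dependent kinases to the kinases that phosphorylate them. Asb11 is an adaptor that brings substrates to a cullin 5 ubiquitin ligase. Htra4 is a secreted serine protease, and afamin, the product of Afm, is a secreted glycoprotein of the albumin family that binds vitamin E and Wnt proteins.

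Total counts were 18161442 to 45150953 per library. Ppp3r1 itself lay between 84.4 and 108 CPM in Control (counts per 1000000 of the library size, scaled by TMM) and between 74.0 and 97.7 CPM in KO. Its ranges overlapped, and the log2 ratio was -0.18 ± 0.13 (SE, edgeR adjusted p = 0.548), so gene-level counts do not check the genotype labels. Of 14268 genes tested by edgeR's quasi-likelihood test, 125 (0.876%) were called lower and 191 (1.34%) higher in KO at an adjusted p under 0.05, and in 547 genes (3.83%) all KO libraries lay below all Control libraries. All 4 chosen genes are in both lower sets, which restates how they were chosen, so no test of their own difference is given. The summed level of 10 markers of the distal convoluted tubule was 13140 to 18126 CPM in Control against 7794 to 11604 CPM in KO, so the segment label fits its markers in both groups. Of the 10, 5 were called lower and 1, Tfap2b, higher (log2 0.63 ± 0.12, edgeR adjusted p = 0.028). Slc12a3, Emx1 and Sall3 overlapped between the groups, at log2 fold changes of -0.41, -0.11 and 0.17. The 6 thick ascending limb markers summed to 8979 to 13978 CPM in Control against 4338 to 7145 CPM in KO, most of it Umod. The 7 macrophage and leukocyte markers summed to 17.8 to 24.6 CPM in Control against 26.8 to 79.0 CPM in KO. Among the latter, Csf1r alone stood at 6.01 to 7.79 CPM in Control against 12.4 to 72.2 CPM in KO. Log2 fold changes were 2.21 for Csf1r, 1.96 for Cd68, 1.56 for Ptprc, -0.22 for Lyz2 and -0.73 for Cd74, and none was called. The sums of these 3 lists did not overlap between the groups, as the chosen genes do not, and their part in the results was not tested. Without Csf1r the macrophage and leukocyte sums did overlap, as did the thick ascending limb sums without Umod. The distal convoluted tubule sums overlapped without Pvalb and Calb1. Adgre1 and C1qa, of the macrophage and leukocyte list, had too few counts to test and overlapped as well. In bulk RNA, fewer cells that express a gene and less of its RNA per cell cannot be told apart.

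**Figure D1:**
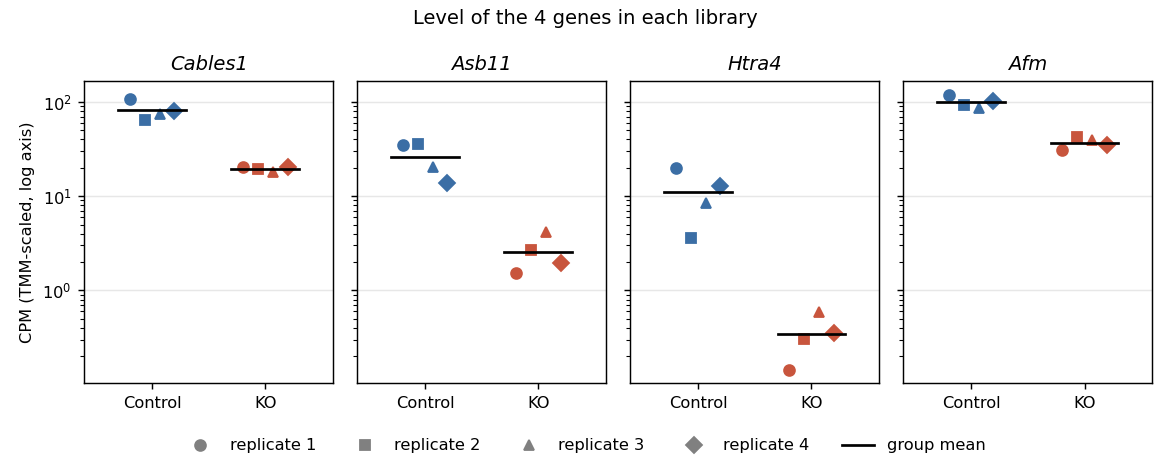
CPM of Cables1, Asb11, Htra4 and Afm (log axis) in each of the 4 Control and 4 KO libraries, with one marker shape per replicate and a line at the group mean. In each panel every KO point lies below every Control point, and the points of Htra4 and Asb11 are more spread within a group than those of Cables1 and Afm.

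Cables1 (ENSMUSG00000040957, chromosome 18, 11839220 to 11945630, plus strand, GRCm38) stood at 108, 64.9, 75.3 and 80.8 CPM in Control replicates 1 to 4. In KO replicates 1 to 4 it stood at 20.3, 19.2, 18.2 and 20.3 CPM. All KO libraries were therefore within 1.12-fold of each other, and the lowest Control library was 3.19 times the highest KO library. The means were 82.2 ± 18.3 CPM in Control against 19.5 ± 1.01 CPM in KO (SD, n = 4 each), so that KO held 23.7% of the Control level, a log2 fold change of -2.07 ± 0.16 (SE). The KO coefficient of variation was 5.18%, against a median of 12.0% over 2765 tested genes whose KO level was within 1.5-fold of that of Cables1. In Control it was 22.2%, against a median of 15.1% over 2096 tested genes of like Control level. A noncoding gene on the opposite strand, Gm6277, shares 1314 exon bases with Cables1 and held 10.1% as many counts over all libraries. Gm6277 fell from 7.16 ± 1.92 to 2.92 ± 0.467 CPM (log2 -1.28 ± 0.24, edgeR adjusted p = 0.029). The strand setting of the counting is not given, so reads of the shared part cannot be told apart.

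A list of 19 genes was made of Cables2, the relative of Cables1, and of genes whose products bind Cables1 or act with it. Of these, 15 could be tested, and all 15 had fold changes above 0 under TMM scaling, with a median log2 fold change of 0.31 against -0.02 over all genes tested. The list had 1 higher and 0 lower calls, where 1.34% and 0.876% of all genes tested were called. The gene called was cyclin A2 (Ccna2), a cyclin of S phase and mitosis and a partner of Cdk2. Ccna2 stood at 1.27 to 2.30 CPM in Control against 7.79, 10.6, 4.41 and 16.5 CPM in KO replicates 1 to 4. It rose by 2.62 ± 0.40 on the log2 scale (SE, edgeR adjusted p = 0.0142), and the ranges did not overlap. The call was lost with a block by animal number series (adjusted p = 0.097), without Control replicate 4 (0.0622) and without KO replicate 2 (0.0591). The paralogue Cables2 was at 11.7 ± 1.04 CPM in Control against 12.5 ± 1.39 CPM in KO (log2 0.09 ± 0.14, adjusted p = 0.784). Wee1, the kinase that places the inhibitory phosphate on cyclin-dependent kinases, was at 38.1 ± 9.82 CPM in Control against 52.4 ± 6.69 CPM in KO (log2 0.46 ± 0.18, adjusted p = 0.295). The kinases Cdk5, Cdk2, Abl1 and Abl2 had 0.05, 0.16, 0.12 and 0.19, and none of these passed. At an unadjusted p under 0.05, 5 of the 15 were higher and 0 lower, where 7.79% of all genes tested were higher and 6.15% lower.

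Asb11 (ENSMUSG00000031382, chromosome X, 164436994 to 164459170, plus strand, GRCm38) stood at 34.8, 36.0, 20.4 and 13.9 CPM in Control replicates 1 to 4. In KO replicates 1 to 4 it stood at 1.54, 2.66, 4.13 and 1.95 CPM. Control replicates 1 and 2 were the high ones, KO replicate 3 was the highest of its group, and the lowest Control library was still 3.37 times that one. The means were 26.3 ± 10.9 CPM in Control against 2.57 ± 1.14 CPM in KO (SD, n = 4 each). KO held 9.79% of the Control level, a log2 fold change of -3.37 ± 0.39 (SE), and only 12 of the genes tested had a lower fold change. No other annotated gene overlaps Asb11, so its counts share no exon with a neighbour. The Control coefficient of variation of 41.3% was above that of 95.2% of the 3090 genes of like level, whose median was 15.7%. Asb11 is best known from skeletal muscle, and of the 7 muscle markers Ckm, Myh1, Myh4 and Tnnt3 had 0 counts in all 8 libraries, while the 7 summed to 0.679 to 3.86 CPM.

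The promoter table of RefSeq (GRCm38.p6) held 2 of the 4 genes, Asb11 and Afm, and their upstream sequences are shown because the letters of known calcium-responsive and liver-type sites can be read in them. Each runs 5′ to 3′ on the gene's own strand. Capitals mark, on either strand, the NFAT core GGAAA, the CRE core TGACG bound by CREB, the CCAAT box, the TATA box TATAAA and the HNF1 core GTTAAT. The sequence of Asb11 is chrX:164436744-164436993 and that of Afm is chr5:90518699-90518931.
Asb11: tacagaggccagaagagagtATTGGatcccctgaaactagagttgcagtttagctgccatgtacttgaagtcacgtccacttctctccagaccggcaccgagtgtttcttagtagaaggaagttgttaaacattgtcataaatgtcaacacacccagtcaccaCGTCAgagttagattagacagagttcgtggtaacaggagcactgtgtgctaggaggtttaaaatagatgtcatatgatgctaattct
Afm: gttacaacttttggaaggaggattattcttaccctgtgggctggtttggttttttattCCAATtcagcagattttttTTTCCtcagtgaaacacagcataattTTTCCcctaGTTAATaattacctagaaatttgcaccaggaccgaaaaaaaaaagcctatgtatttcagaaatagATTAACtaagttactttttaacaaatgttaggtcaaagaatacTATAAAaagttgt

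Both windows were searched over the 250 bases before the RefSeq start, of which the last bases for Afm are not printed because GENCODE places them in the first exon. The Asb11 window held no NFAT core, which 55.6% of all 32851 windows of this length hold, and no TATA box, which 12.4% hold. It held 1 CRE core, beginning 87 bases before the start (17.8% of windows hold one), and 1 CCAAT box, 230 bases before it (33.8% hold one). The Afm window held 3 NFAT cores, at 173, 147 and 11 bases before the start and all on the opposite strand, the last of them in the unprinted part. It also held a TATA box 30 bases before the start and 2 HNF1 cores, at 138 and 73 bases before it. At least 1 HNF1 core is held by 6.43% of windows, and the share with 2 was not counted. The full CRE TGACGTCA, the AP-1 site TGANTCA and the AP-2 site GCCNNNGGC were in neither window, and 1.55%, 6.75% and 13.7% of windows hold them. Each window held 1 E-box CANNTG, as do 66.2% of windows at least once. The printed Afm sequence had 31.3% G and C and that of Asb11 43.6%, against a median of 52.4% over all windows. A match of letters is a description and not a site.

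The genes next to Asb11 on the X chromosome were lower in KO as well. Of its 5 nearest protein-coding genes on each side, 6 could be tested. Of these, 3, the nearest on one side and the nearest pair on the other, were called lower, where 0.876% of all genes tested were. The 4 genes lie on the plus strand in the order Vegfd, Piga, Asb11, Asb9. Vegfd (chromosome X, 164373378 to 164402650), which encodes a growth factor of the VEGF family for lymphatic vessels, stood at 72.8, 42.2, 49.1 and 47.4 CPM in Control replicates 1 to 4 and at 11.3, 14.6, 16.6 and 14.8 CPM in KO replicates 1 to 4. It fell by 1.88 ± 0.19 on the log2 scale (SE, edgeR adjusted p = 0.00237), with no overlap between groups.

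Piga (chromosome X, 164419787 to 164433916), which encodes an enzyme of the first step of GPI anchor synthesis and ends 3.08 kb before Asb11 begins, stood at 32.6, 57.7, 45 and 32.5 CPM in Control against 22.0, 16.7, 17.4 and 19.7 CPM in KO. It fell by 1.15 ± 0.20 on the log2 scale (adjusted p = 0.0207). Asb9 (chromosome X, 164506327 to 164539752), the ASB family member next to Asb11, stood at 43.4, 31.0, 33.0 and 30.4 CPM in Control against 17.6, 13.8, 21.4 and 10.2 CPM in KO. It fell by 1.13 ± 0.22 on the log2 scale (adjusted p = 0.0325). Asb11, picked for its large fall in this contrast, had the lowest fold change of the 4 genes in this stretch. None of the other 3 was picked, though earlier results of these data were known when the choice was made.

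Beyond Asb9, Mospd2 and Fancb had log2 fold changes of 0.30 ± 0.12 and 0.72 ± 0.31, neither of which passed (adjusted p = 0.313 and 0.328). Pir and Bmx, the next genes beyond Vegfd, held too few counts to test. Of these 3 calls that of Asb9 was the least stable. It was lost with a batch term for the 2 forms of file name, with a block by animal number series and without any 1 library other than KO replicate 3, with adjusted p-values from 0.0536 to 0.121. Piga lost it with that block and without Control replicate 3, KO replicate 2 or KO replicate 4, with adjusted p-values from 0.0646 to 0.0802, and Vegfd kept it under all 17 other settings. All libraries held Y-linked transcripts at like levels, with Ddx3y at 22.3 to 37.9 CPM in Control against 26.2 to 42.6 CPM in KO.

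**Figure D2:**
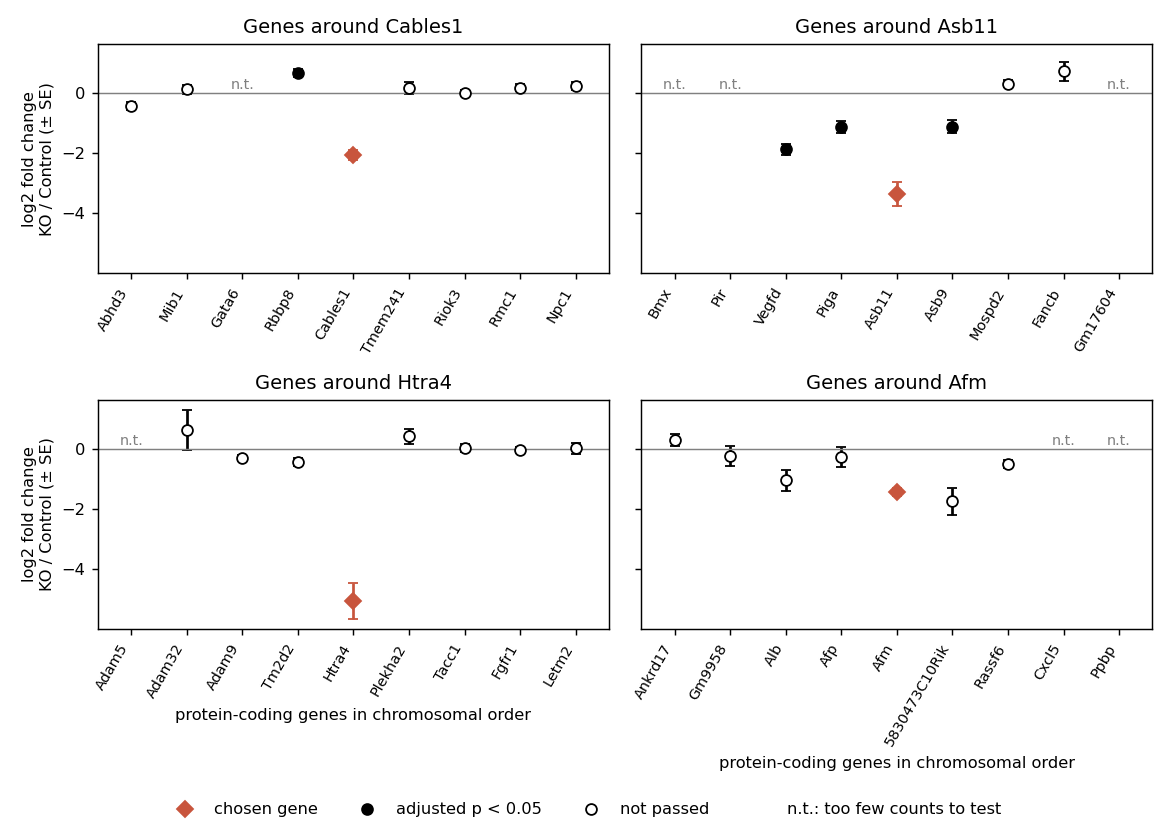
Log2 fold change (KO over Control, bars are SE) of the 4 nearest protein-coding genes on each side of each chosen gene, in chromosomal order. Filled circles passed the adjusted threshold, diamonds are the chosen genes, and genes marked n.t. had too few counts to test. Vegfd, Piga and Asb9 sit at -1.88, -1.15 and -1.13 around Asb11, while the tested genes around Htra4 lie between -0.44 and 0.62.

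By edgeR the neighbours of the other 3 genes held 1 call, and the count depended on the tool. DESeq2 called 3 and limma-voom 2 of the 7 tested neighbours of Afm lower, and limma-voom called 1 of the 9 tested neighbours of Cables1 lower. Around Cables1, 9 neighbours were tested and Rbbp8, a DNA end-resection factor 94.0 kb away, was called higher (37.3 ± 2.61 to 59.2 ± 10.7 CPM, log2 0.67 ± 0.14, edgeR adjusted p = 0.0435). That call was lost without any 1 library other than KO replicates 1 and 3 (adjusted p from 0.072 to 0.14), with the block (0.172), with the batch term (0.0502) and with the filter of at least 5 CPM in 4 libraries (0.0506). Tmem241, on the other side, had 0.15 ± 0.20 (adjusted p = 0.753). Around Htra4, 8 neighbours were tested and 0 passed, with 2 lower and 0 higher at an unadjusted p under 0.05 (6.15% and 7.79% of all genes tested), and DESeq2 and limma-voom likewise called 0. Plekha2, whose gene lies 181 bases away, stood at a log2 ratio of 0.41 ± 0.26 (adjusted p = 0.51), and Tm2d2, on the other side, had -0.44 ± 0.14 (adjusted p = 0.178). In all, of 30 tested neighbours of the 4 genes, 3 were called lower and 1 higher, and their median log2 fold change was 0.01. Over all genes tested, 0.876% were called lower and 1.34% higher, and the median was -0.02.

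The list of ASB adaptors, the cullin 5 ligase and Asb11 substrates or regulators held 25 genes. Of these, 17 were tested, 0 were called higher, 1 was called lower (Asb9) and 16 did not pass. Over all genes tested, 1.34% were called higher and 0.876% lower. The median log2 fold change of the list was -0.14. For the 8 tested ASB genes other than Asb9, log2 fold changes ran from -0.39 for Asb3 to 0.14 for Asb1. The scaffold Cul5 had 0.03 ± 0.12 and its RING partner Rnf7 -0.38 ± 0.19, and the elongins Elob and Eloc, which dock the SOCS box, had -0.41 and -0.17. Bik and Rpn1, which encode proteins that Asb11 is known to mark for degradation, had -0.30 and -0.16. Xbp1, the unfolded protein response factor known to induce Asb11, was at 174 ± 26.2 CPM in Control against 171 ± 27.7 CPM in KO (SD, n = 4 each, log2 -0.02 ± 0.15, adjusted p = 0.964).

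Htra4 (ENSMUSG00000037406, chromosome 8, 25024929 to 25038962, minus strand, GRCm38) stood at 19.7, 3.63, 8.52 and 12.8 CPM in Control replicates 1 to 4, from 404, 151, 163 and 256 counts. In KO replicates 1 to 4 it stood at 0.144, 0.308, 0.59 and 0.351 CPM, from only 7, 8, 15 and 7 counts. Control replicate 2 was the lowest of its group and replicate 1 the highest, 5.42 times as high, and the lowest Control library was 6.16 times the highest KO library. The means were 11.2 ± 6.82 CPM in Control against 0.348 ± 0.184 CPM in KO (SD, n = 4 each). KO held 3.12% of the Control level, a log2 fold change of -5.05 ± 0.60 (SE), and only 3 of the genes tested had a lower one. The Control coefficient of variation was 61.0%, above that of 97.7% of 2026 genes of like level. A noncoding gene on the opposite strand, Gm16933, shares 792 exon bases with Htra4 but held 4 counts in all.

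The other HtrA proteases and the secreted proteins that share the insulin-like growth factor-binding domain of Htra4 made a list of 13 genes. Of these, 10 were tested, 0 were called higher, 2 were called lower and 8 did not pass. Over all genes tested, 1.34% were called higher and 0.876% lower. The median log2 fold change of the list was -0.51, against -0.02 over all genes tested, and 3 of the 10 fold changes were above 0. Igfbp1, a binding protein for insulin-like growth factors, stood at 2.97, 4.48, 0.784 and 1.10 CPM in Control replicates 1 to 4 and at 0.144, 0.0386, 0.236 and 0.15 CPM in KO. It fell by 4.02 ± 0.68 on the log2 scale (SE, edgeR adjusted p = 0.0199), from 284 counts over the Control libraries against 17 over the KO libraries. Igfbp7, an abundant relative of the binding proteins, stood at 1818, 1034, 1150 and 1170 CPM in Control against 718, 580, 673 and 569 CPM in KO. It fell by 1.03 ± 0.19 on the log2 scale (adjusted p = 0.0278). Both calls were lost with the block by animal number series, with adjusted p-values of 0.0835 for Igfbp1 and 0.0755 for Igfbp7. The call of Igfbp1 was also lost without KO replicate 1, 2 or 4 (adjusted p from 0.0601 to 0.0762), and that of Igfbp7 without those and without Control replicate 3 or 4 (0.0511 to 0.108). The protease Htra1 was at 24.0 ± 10.1 CPM in Control against 13.1 ± 7.34 CPM in KO, with overlapping ranges (log2 -0.88 ± 0.40, adjusted p = 0.368). By limma-voom Htra1 was called lower (log2 -1.26, adjusted p = 0.0433), which made 3 lower calls in this list. The mitochondrial protease Htra2 had -0.38 ± 0.15 (adjusted p = 0.285), and Htra3 had 2 counts in all.

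Afm (ENSMUSG00000029369, chromosome 5, 90518932 to 90553543, plus strand, GRCm38) stood at 119, 93.7, 86.9 and 102 CPM in Control replicates 1 to 4. In KO replicates 1 to 4 it stood at 30.9, 42.0, 39.7 and 35.1 CPM. The libraries lay within 1.37-fold of each other in Control and 1.36-fold in KO, and the lowest Control library was 2.07 times the highest KO library. The means were 100 ± 13.8 CPM in Control against 36.9 ± 4.90 CPM in KO (SD, n = 4 each). KO held 36.8% of the Control level, a log2 fold change of -1.44 ± 0.14 (SE), which places Afm 116th from the bottom of the genes tested and makes it the smallest difference of the 4. Its Control coefficient of variation of 13.7% was below the median of 15.3% over 1798 genes of like level. The KO coefficient of variation of 13.3% was above the median of 11.1% over 3188 genes of like KO level.

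Afm lies in the cluster of albumin genes, between Afp, 10 kb away, and 5830473C10Rik, 7.56 kb away. Alb, the plasma carrier albumin and the most abundant product of hepatocytes, stood at 3.46 to 6.59 CPM in Control against 1.30 to 3.34 CPM in KO (log2 -1.05 ± 0.34, edgeR adjusted p = 0.181). Afp, the fetal albumin, stood at 1.15 to 3.66 CPM in Control against 1.75 to 2.09 CPM in KO (log2 -0.28 ± 0.33, adjusted p = 0.724). The neighbour 5830473C10Rik stood at 4.10, 2.26, 1.41 and 6.42 CPM in Control against 0.781, 1.08, 1.18 and 1.20 CPM in KO (log2 -1.74 ± 0.45, adjusted p = 0.094). By edgeR 0 of the 7 tested neighbours of Afm passed, with 3 lower and 0 higher at an unadjusted p under 0.05 (6.15% and 7.79% of all genes tested). These 3 were Alb, 5830473C10Rik and Rassf6, a RAS-binding adaptor (log2 -0.50 ± 0.14, adjusted p = 0.114). The neighbours called lower by DESeq2 included Alb (adjusted p = 0.0474) and 5830473C10Rik (adjusted p = 0.00491), and those called by limma-voom included Alb (adjusted p = 0.0469). The vitamin D-binding protein gene Gc, a further albumin relative, had -0.87 ± 0.64 (adjusted p = 0.559).

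Of the 13 genes of the albumin family and of vitamin E handling, 12 were tested and 0 passed by edgeR, while 4 were higher and 2 lower at an unadjusted p under 0.05 (7.79% and 6.15% of all genes tested). DESeq2 called 3 of them, 2 lower and 1 higher, and limma-voom called 1, lower. Their median log2 fold change was -0.04. Sec14l2, a vitamin E-binding transfer protein, stood at 0.878, 2.17, 1.62 and 0.401 CPM in Control against 3.99, 3.12, 4.37 and 5.01 CPM in KO (log2 1.67 ± 0.43, edgeR adjusted p = 0.0973). The receptors Scarb1 and Cd36, which take up vitamin E, had 0.20 and -0.43, and the liver transfer protein Ttpa had 0.34. Of 10 hepatocyte markers, Ahsg had 0 counts in all libraries and the 10 summed to 32.0 to 82.8 CPM in Control against 12.4 to 47.7 CPM in KO. Of these markers Alb and Apoa2 stood lower in every KO library than in any Control library, as did 3.83% of all genes tested. Apoa2 stood at 3.73 to 6.92 CPM in Control against 2.14 to 2.89 CPM in KO. Hpx, with too few counts to test, went the other way, at 0 to 0.0501 CPM in Control against 0.0771 to 0.197 CPM in KO. The groups overlapped for the other markers, and the part of hepatocyte RNA in the level of Afm was not tested.

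**Figure D3:**
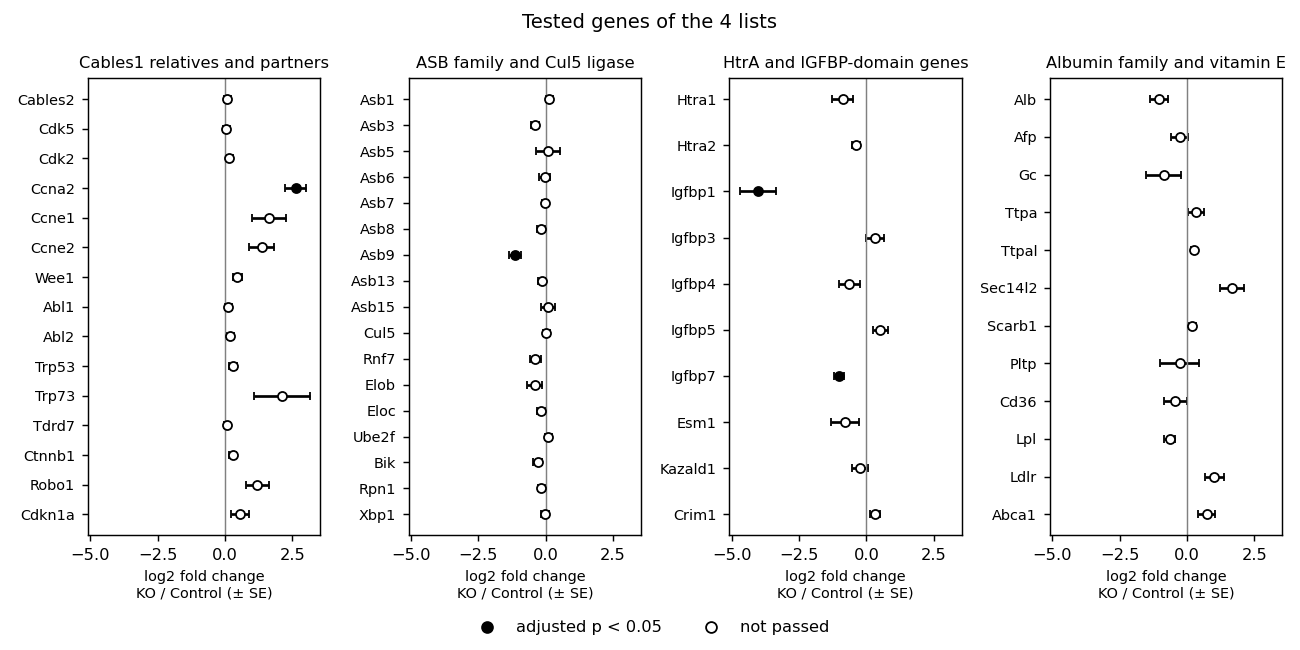
Log2 fold change (KO over Control, bars are SE) of every tested gene in the 4 lists of relatives and partners, with filled circles for genes past the adjusted threshold. Ccna2 (2.62) is the filled circle to the right of 0, and Asb9 (-1.13), Igfbp1 (-4.02) and Igfbp7 (-1.03) are those to the left.

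Set per kilobase of exon, so that genes can be compared, the Control level was 33.0 ± 4.53 CPM per kb for Afm, 21.4 ± 4.76 for Cables1, 9.23 ± 3.81 for Asb11 and 4.65 ± 2.84 for Htra4 (SD, n = 4 each). The SDs of Afm and Cables1 do not reach each other's means, while those of Asb11 and Htra4 overlap. In KO the order was the same, at 12.2 ± 1.61, 5.08 ± 0.263, 0.903 ± 0.400 and 0.145 ± 0.0767 CPM per kb. On this scale Afm stood above 89.9% of tested genes in Control and 74.6% in KO, and Cables1 above 84.6% and 52.4%. Asb11 stood above 67.8% in Control and 19.3% in KO, and Htra4 above 50.3% and 3.31%.

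The libraries did not rank alike for the 4 genes. Control replicate 1 was the highest Control library for Cables1, Afm and Htra4, and Control replicate 2 was the highest for Asb11 but the lowest for Cables1 and Htra4. KO replicate 1 was the lowest KO library for Afm, Asb11 and Htra4, and KO replicate 3 was the highest for Asb11 and Htra4 and the lowest for Cables1. Parvalbumin (Pvalb), the calcium-binding protein that marks the early part of the segment, stood at 987, 179, 381 and 485 CPM in Control replicates 1 to 4 and at 2.14, 1.77, 2.12 and 1.5 CPM in KO. In Control its order, with replicate 1 highest, then 4, 3 and 2, is that of Cables1 and of Htra4. The share of all genes with this order was not counted. The sum of 10 proximal tubule markers had the reverse order, at 1285, 4649, 4114 and 2848 CPM in Control replicates 1 to 4. The part of such other tubule RNA in the order of the libraries was not tested.

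Profiles were compared by the root-mean-square difference of log2(CPM + 1) over the 8 libraries, each gene set to a mean of 0, among 12097 genes. Because this measure includes the group difference that chose the genes, it is a description. The added 1 CPM also shrinks differences between libraries that lie near or below 1 CPM, as those of Htra4 did in KO. The gene most like Cables1 was Vegfd, the neighbour of Asb11, at a difference of 0.204, followed by Isyna1, the enzyme of inositol synthesis, at 0.268 and the channel regulator gene Lrrc52 at 0.341. Afm was most like Sybu (0.179), a linker of cargo to kinesin motors, Phyhip (0.2) and Larp1b (0.203). Their log2 fold changes were -1.88, -1.48 and -1.27, beside -1.44 for Afm. The genes most like Asb11 were the noncoding host gene Mir670hg (0.528), the urocanate-degrading enzyme Uroc1 (0.584) and the early response gene Ier3 (0.587). These had log2 fold changes of -4.33, -2.70 and -2.17, beside -3.37 for Asb11. Those most like Htra4 were the matrix gene Adamtsl3 (0.530), the calbindin gene Calb1 (0.556) and Mir670hg (0.565). Adamtsl3 had a log2 fold change of -5.76, Calb1 of -2.68 and Mir670hg of -4.33, beside -5.05 for Htra4. The nearest pair among the 4 genes themselves was Afm with Cables1, at 0.343, and the farthest was Afm with Htra4, at 0.925.

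**Figure D4:**
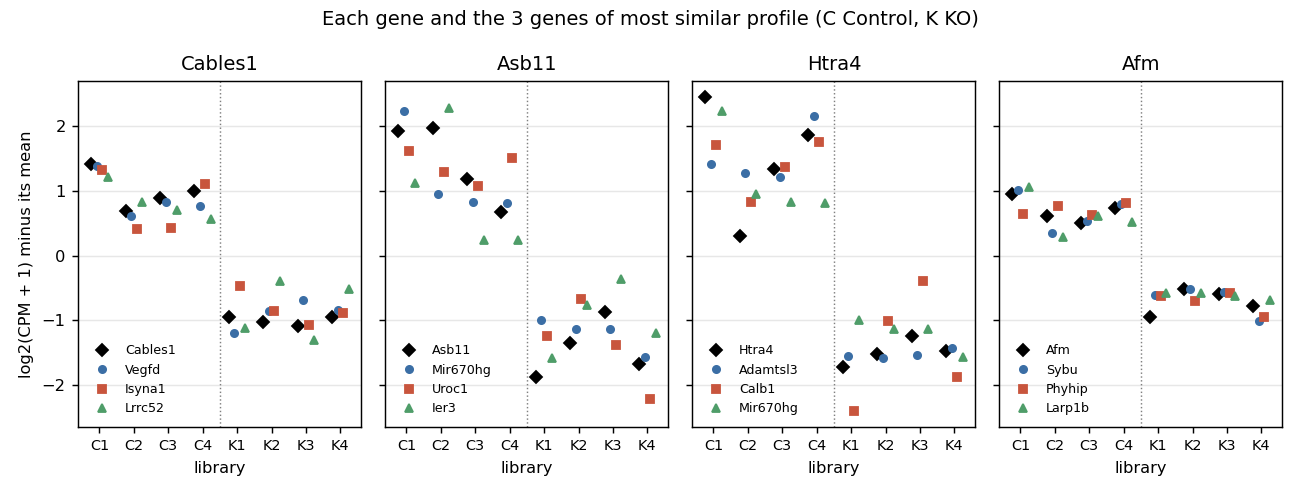
Log2(CPM + 1) minus its mean over the 8 libraries for each chosen gene (diamonds) and the 3 genes closest to it, with Control libraries C1 to C4 left of the dotted line and KO libraries K1 to K4 right of it. The points of Cables1 and Vegfd lie close together in every library (difference 0.204), while those around Asb11 and Htra4 are looser (0.528 to 0.587).

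The size of the differences depended little on the settings. Over the 17 other settings the log2 fold change of Cables1 lay between -2.17 and -1.91, that of Afm between -1.51 and -1.29, and that of Asb11 between -3.70 and -3.17. That of Htra4 lay between -5.47 and -4.50 over the 16 settings that tested it, since only 3 of its libraries, all Control, reach 5 CPM and the stricter filter asks for 4. The deposited files carry names of 2 forms, and with a term for the form the log2 fold changes were -2.06 for Cables1, -1.45 for Afm, -3.36 for Asb11 and -4.93 for Htra4. With the block by animal number series they were -2.03, -1.43, -3.62 and -4.74.

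**Figure D5:**
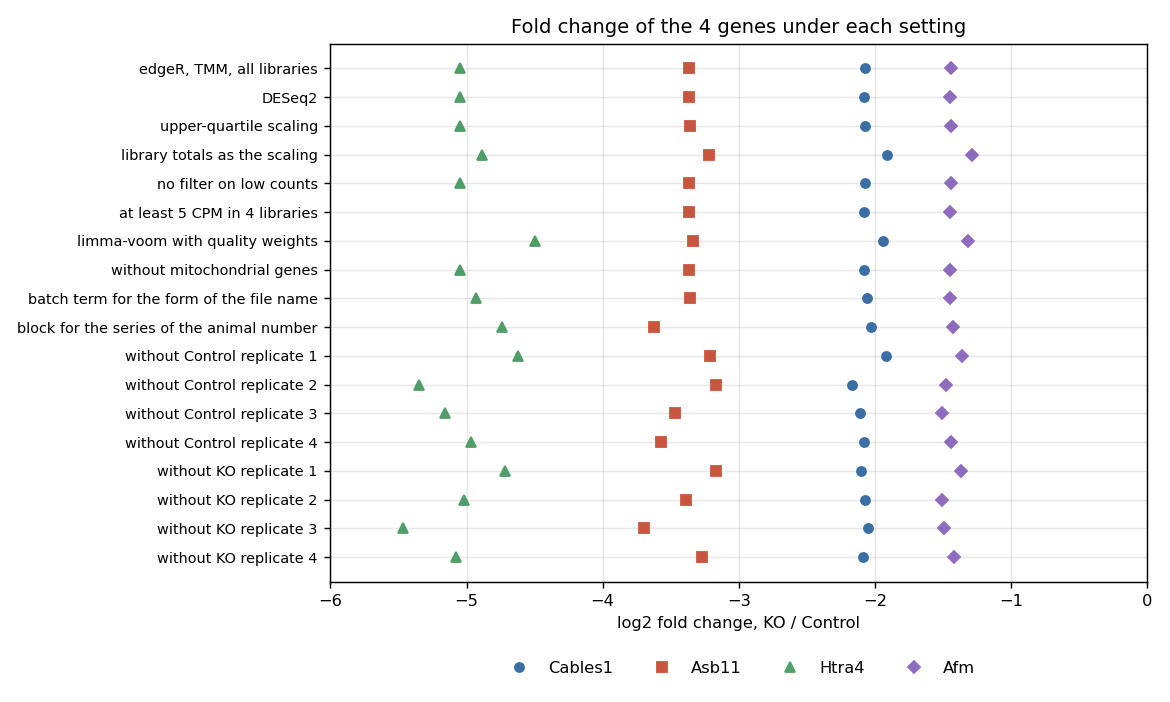
Log2 fold change (KO over Control) of the 4 genes under the main setting, on the top line, and each other setting or left-out library. The 4 genes keep their order in every line where all are present, with Htra4 lowest (-5.47 to -4.50) and Afm closest to 0 (-1.51 to -1.29).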

How the data were processed

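Gene-level read counts, as deposited by the authors without normalization, were used for 8 libraries grouped by the deposited genotype label. The submitters' processing notes name STAR 2.7.4a, fastp 0.20.0, bcl2fastq 2.20 and the build GRCm38.p6. The sources used here do not name the counting program, annotation or strand setting. GENCODE vM21 named 42347 of 42416 identifiers. Genes passing filterByExpr were compared by edgeR 4.0.16 (TMM scaling, two-sided quasi-likelihood F test, Benjamini-Hochberg adjustment over all genes, R 4.3.3). The SE is the fold change over the square root of F. The labels give each library its own animal number. Replicate numbers follow the order of deposit. No pair of libraries of the same group agreed within sampling noise (chi-square per degree of freedom at least 28.8). Alternatives were DESeq2 1.42.0, limma-voom (limma 3.58.1), other scalings and filters, a batch term, an animal-number block and leaving out each library. The fit was tested on simulated data. Named were the 4 genes, list and neighbour genes that passed, close relatives, nearest neighbours and the 3 most similar profiles. Members and lists were chosen with earlier results of these data known. A neighbour gene of Asb11 counted among those tested is not reported here. Further genes were named after their values were seen.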

Additional observations from a re-analysis of the deposited data

Results flagged for a closer look

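Over 64 groups of 4 libraries, taken from the genes named by rule as given above, 5 held a library far from the other 3. The test was Dixon's gap test, where chance flags about 1 in 20. None of the 5 concerns the 4 chosen genes. Genes named outside that rule were not part of these groups. Gc stood at 36.0 CPM in Control replicate 2 and at 5.80 to 10.9 CPM in the other Control libraries. Htra1 stood at 24.0 CPM in KO replicate 3 and the other KO libraries at 7.97 to 10.3 CPM. Tm2d2 stood at 144 CPM in Control replicate 1 against 97.2 to 102 CPM, and Mir670hg at 13.0 CPM in the same library against 4.21 to 4.72 CPM. Adamtsl3 stood at 14.0 CPM in Control replicate 4 against 6.79 to 8 CPM.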

How the results depend on the processing

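The 4 chosen genes kept the sign and size of their difference under all 17 other settings, 16 for Htra4. The number of genes called did not. Against 191 higher and 125 lower calls, DESeq2 gave 422 and 327, the filter of at least 5 CPM in 4 libraries gave 62 and 78, and a block by animal number series gave 5 and 24. A batch term by file name form gave 105 higher calls and limma-voom 233 lower calls. Leaving out 1 library gave 15 (without KO replicate 2) to 257 (without KO replicate 3) higher and 21 to 131 lower calls (the same libraries). Among the Cables1 partners the 1 higher call became 0 with the 5 CPM filter, which drops Ccna2, and 0 with the block, and was 0 to 1 without 1 library. In the ASB list the 1 lower call became 0 with the batch term and 0 with the block, and was 0 to 1 without 1 library. In the HtrA and IGFBP list the 2 lower calls became 1 with the 5 CPM filter and 0 with the block, and were 0 to 2 without 1 library. In the albumin and vitamin E list the calls by DESeq2 were 2 lower and 1 higher, and by limma-voom 1 lower. Of the neighbour genes, 1 higher call became 0 with the filter, the batch term and the block, and was 0 to 1 without 1 library. The 3 lower neighbours became 6 with DESeq2, 6 with limma-voom and 1 with the block, and were 1 to 3 without 1 library.

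Signs turned for 3 genes that were not called. Afp was at 0.14 with limma-voom and between -0.49 and 0.03 without 1 library, the latter without Control replicate 1. Gc ran from -1.15 to 0.03, the latter without Control replicate 2, and Cables2 from -0.00 to 0.15. Scaling by library totals moved the median log2 fold change of all genes from -0.02 to 0.13. The causes of these changes were not tested. No paired analysis was possible because the labels carry no replicate numbers shared between groups. The block for the animal number series is not such a pairing, and Control replicate 4 is the only library of its series. Depth limits Htra4 in KO, where it rests on 7 to 15 counts per library.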
